A study of Mus musculus with 2 samples.

Results

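Potassium channel genes were taken as all genes whose symbol starts with Kcn and that have at least 1 protein-coding transcript in the GENCODE M21 annotation. The choice rested on names and annotation only, and it gave 94 of the 55536 gene entries in the data, all of them among the 21901 genes with a protein-coding transcript. Of these, 77 encode pore-forming subunits and 17 encode auxiliary subunits that bind a channel and change its gating or transport. The 94 genes were divided into 6 subfamilies, which were 35 voltage-gated (Kv), 15 inward rectifier (Kir), 14 K2P, 8 BK/SK and 5 KCNQ genes, and the auxiliary genes.

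The tissue was labelled as a layer of the hippocampus and came from male mice, 2 months old, of the B6CASTF1/J hybrid strain (C57BL/6J crossed with CAST/EiJ), with no treatment named. Total RNA, 300 ng for each library, was sequenced in 2 libraries with ERCC spike-ins whose label names stranded, ribosomal-RNA-reduced libraries. They carry biological replicate numbers 1 and 2 but the same donor label, so their separate origin from 2 animals rests on the replicate numbers. The libraries formed 1 group, so no condition was compared and no p-value was computed. Both library values are given for each gene in TPM, a relative abundance corrected for transcript length, and n = 2 holds for each mean ± SD.

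Expected counts summed to 31422827 for replicate 1, and to 31303010 for replicate 2. Kcn genes held 0.557% of the counts assigned to genes in replicate 1 and 0.547% in replicate 2. A gene was called detected at 1 TPM or more in both libraries. Levels came from a quantification based on aligned reads, called the first here, and a quantification made from the reads directly, the second, was set beside it. Markers of excitatory hippocampal neurons were detected in 8 of 8 genes, of interneurons in 6 of 6, of astrocytes in 5 of 5, of oligodendrocytes in 4 of 4 and of microglia in 4 of 4. Endothelial markers were detected in 3 of 3 genes and mural cell markers in 4 of 5, with Kcnj8 as the exception. Choroid plexus markers were detected in 2 of 5 genes, and Ttr, the transthyretin gene that the choroid plexus expresses strongly, had 10.6 TPM in replicate 1 and 23.1 TPM in replicate 2. Folr1, Kcnj13 and Aqp1 were not detected, and Kcnj8 and Kcnj13 are Kcn genes themselves. Of 4 heart and skeletal muscle genes taken as a background, 2 were detected, Myh6 at 1.02 and 1.67 TPM and Acta1 at 2.64 and 2.63 TPM. Detection was common, at 57.9% of all genes with a protein-coding transcript, and alone does not show a cell type. Markers of neurons, astrocytes, oligodendrocytes and microglia had means of at least 7.005 TPM (Vip), so the tissue held several cell types. Every level below is a value for the whole tissue, and its division among cell types was not measured. Fewer cells of a type and less RNA in each cell cannot be told apart in such tissue.

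Potassium channels let potassium ions leave a neuron down their gradient, which holds the resting potential, ends action potentials and sets how fast a neuron can fire again. Kv channels open when the membrane depolarises, and KCNQ channels carry the M-current that muscarinic receptors close. Kir channels pass inward current more readily than outward current, and K2P channels leak at all voltages. BK and SK channels open when calcium rises in the cell. In the hippocampus these classes are known for shaping the spikes of granule and pyramidal neurons, for the fast firing of interneurons and for the uptake of potassium by astrocytes.

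The feature that pore-forming genes share is the selectivity filter, a loop of 5 residues that strips water from potassium ions. Its residues are threonine or serine, then valine, isoleucine, threonine or leucine, then glycine, then tyrosine, phenylalanine or leucine, then glycine. The 15 bases that encode it are shown for Kcnma1 (BK/SK), Kcnj6 (Kir) and Kcnk1 (K2P), each the gene with the highest mean level in its subfamily, because they are the stretch by which these otherwise distant genes can be read side by side. They were read from the GENCODE M21 transcript with the longest complete coding sequence, 5′ to 3′ on the coding strand and with 15 bases on each side, and the capitals mark the filter codons.
Kcnma1: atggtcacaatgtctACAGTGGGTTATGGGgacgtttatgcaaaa
Kcnj6: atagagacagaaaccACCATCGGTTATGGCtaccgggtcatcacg
Kcnk1, first pore loop: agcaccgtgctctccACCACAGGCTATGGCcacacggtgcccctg
Kcnk1, second pore loop: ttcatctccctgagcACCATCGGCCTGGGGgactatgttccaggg
In mm10 the Kcnma1 codons lie at chr14:23528413-23528427 on the minus strand in exon 8, and those of Kcnj6 at chr16:94832777-94832791 on the minus strand in exon 3. The first stretch of Kcnk1 is split by an intron between chr8:125995808-125995814 and chr8:126025012-126025019, and the second lies at chr8:126025329-126025343, all on the plus strand.

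Exactly 1 such stretch was found in each of the 63 pore-forming genes outside the K2P subfamily, and 2 were found in each of the 14 K2P genes, whose name stands for their pair of pore loops in 1 chain. None of the 17 auxiliary genes held one. Among 21432 other genes with a complete coding sequence, 270 or 1.26% held the pattern. Leucine in the middle of the pattern was added, and the longest transcript was chosen, after the sequences had been seen, so the full count over pore-forming genes is in part set by those choices. The first stretch was split over 2 exons in 14 of 14 K2P genes, and so was the stretch of the 3 Kv4 genes Kcnd1, Kcnd2 and Kcnd3. Of the 89 stretches read, chromosome 18 left out, 77 were distinct as 15-base sequences, and the most common was shared by 5.

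At a level of at least 1 TPM in both libraries, 66 of the 94 Kcn genes (70.2%) were detected, against 57.9% of all genes with a protein-coding transcript. No Kcn gene reached 1 TPM in 1 library only. The median of the mean levels over all 94 genes was 8.41 TPM, against 3.30 TPM over all genes with a protein-coding transcript. For comparison among ion channel families, 9 of 14 sodium channel genes (Scn alpha and beta subunits) and 8 of 10 calcium channel Cacna1 genes were detected. The medians, taken over all 14 and all 10 genes, were 10.2 TPM and 27.1 TPM. By subfamily, 28 of 35 Kv, 7 of 8 BK/SK, 4 of 5 KCNQ, 9 of 15 Kir, 8 of 14 K2P and 10 of 17 auxiliary genes were detected.

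**Figure D1:**
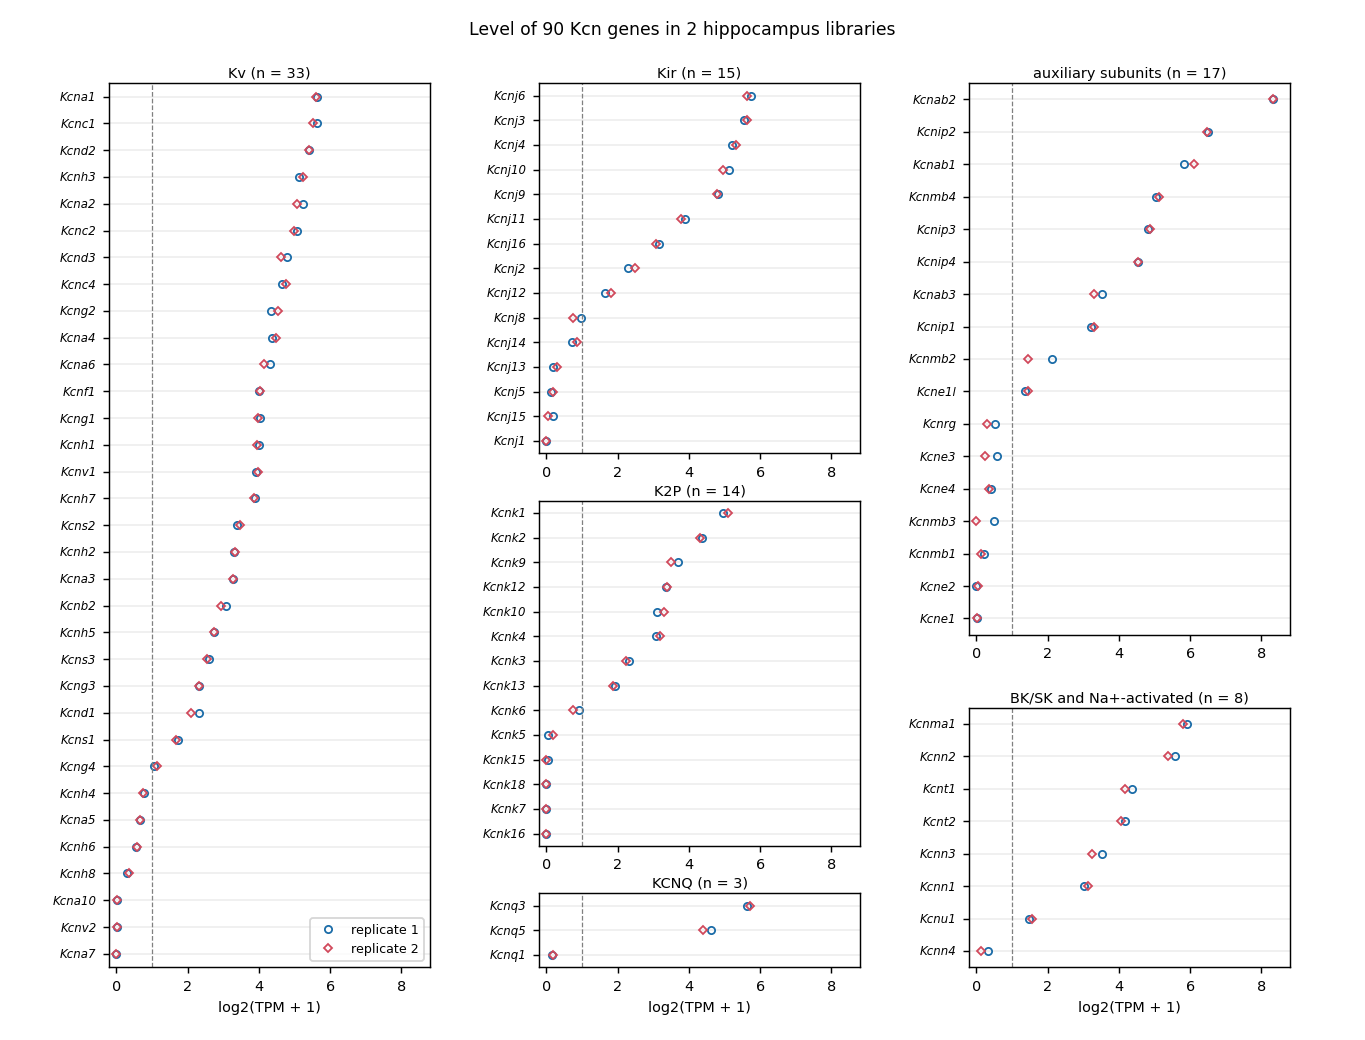
Level of 90 of the Kcn genes as log2(TPM + 1) on the horizontal axis, with genes in rows grouped by subfamily and ordered by mean, circles for replicate 1, diamonds for replicate 2 and a dashed line at 1 TPM. Levels run from 0 in both libraries for 5 genes to 319.7 and 319.5 TPM for Kcnab2, and the marks of most genes above the line nearly coincide.

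The summed level was carried by a small part of the family. Kcn genes summed to 1865 TPM in replicate 1 and 1824 TPM in replicate 2. Kcnab2 held 17.3% of the sum, the 5 highest genes 36.5%, the 10 highest 50.1% and the 20 highest 70.6%. A mean of at least 10 TPM was reached by 40 genes (42.6%), against 35.9% of all genes with a protein-coding transcript. The Kv and auxiliary genes had the highest shares, at 32.0 ± 0.206% and 31.3 ± 0.839% of summed Kcn TPM (SD, n = 2), and their ranges over the libraries overlapped. In the second quantification they held 29.0% (Kv) and 36.1% (auxiliary), and in expected counts, which are not per length, 38.0% and 19.2%. Next came Kir at 12.1 ± 0.0620%, KCNQ at 11.03 ± 0.375%, BK/SK at 8.35 ± 0.487% and K2P at 5.13 ± 0.167%. The auxiliary share rested on Kcnab2 and was 16.9% when that gene was left out of all sums.

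**Figure D2:**
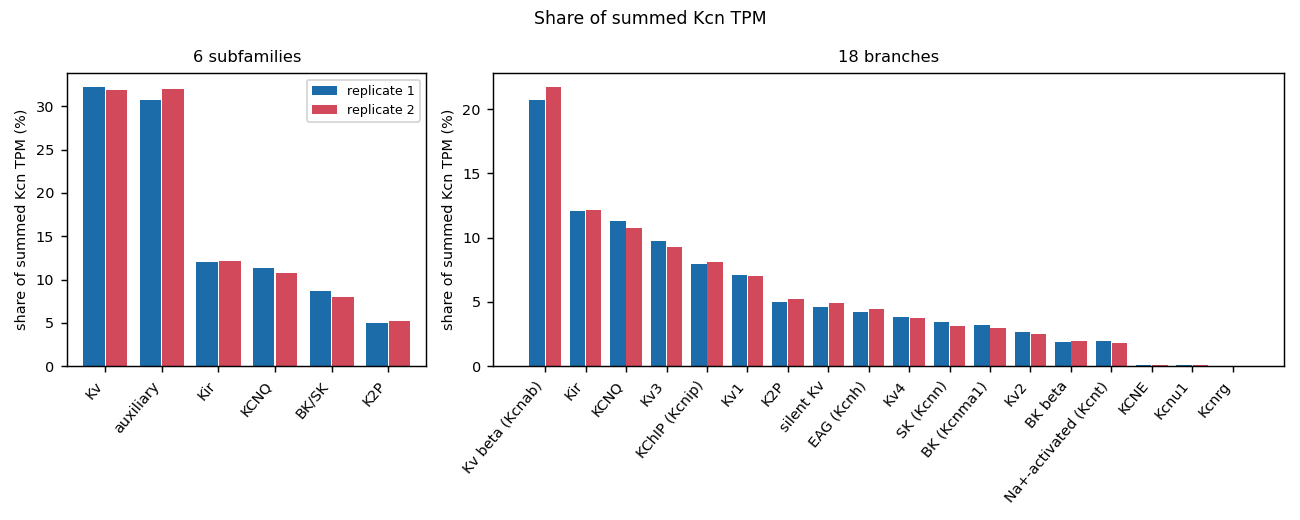
Share of summed Kcn TPM in percent for the 6 subfamilies (left) and for 18 branches within them (right), with 1 bar per library and axes starting at 0. Kv and auxiliary genes stand near 32% and 31%, and the Kv beta genes are the branch with the highest bars, at 20.7% in replicate 1 and 21.7% in replicate 2.

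Among Kv genes, which form the repolarising currents, the Kv3 branch led with 9.49 ± 0.329% of summed Kcn TPM. Kv3 channels open only at strong depolarisation and close fast, and are known for fast-firing neurons. Kcnc1 had 48.7 and 45.0 TPM in replicates 1 and 2, Kcnc2 had 32.9 and 30.6 TPM and Kcnc4 had 24.1 and 26.1 TPM. The values of these 3 genes did not overlap, and all were above 20 TPM in both libraries. Kcnc1 lies on chromosome 7 from 46396497 to 46438704 (mm10).

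The Kv1 branch, which holds low-threshold channels of axons and terminals, had 7.07 ± 0.0940% of the sum. Kcna1 was measured at 48.4 and 47.3 TPM and Kcna2 at 36.5 and 32.8 TPM in replicates 1 and 2. Kcna4, which inactivates fast through its own N-terminus, had 19.8 and 21.5 TPM, and Kcna6 had 19.0 and 16.7 TPM. Kcna3, best known from T cells but also neuronal, had 8.71 and 8.74 TPM. The other 3 Kv1 genes were not detected, with Kcna5, a channel known from heart muscle, at 0.60 TPM in both libraries, Kcna10 at 0.02 TPM in both and Kcna7 listed at 0. Kcna4 had rank 16 among Kv genes in the second quantification, against 12 in the first. Its 370-base noncoding transcript Kcna4-202 had 5.50 and 4.36 TPM in the first quantification and 0 in the second. The part of this transcript in the shift of rank was not tested.

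Kv4 genes encode the A-type current of dendrites, which activates below the spike threshold. Kcnd2 had 41.7 TPM in both libraries, Kcnd3 had 26.4 and 23.8 TPM, and Kcnd1 had 3.97 and 3.25 TPM. The 3 genes did not overlap, so Kcnd2 was the highest Kv4 gene in each library. Kcnb2, a Kv2 gene of the slow delayed rectifier, had 7.36 and 6.61 TPM.

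Silent Kv subunits form no channel alone and join Kv2 subunits to change their gating. Of these 10 genes, 9 were detected, and only Kcnv2, known from photoreceptors, was not, at 0.02 and 0.01 TPM. Kcng2 was the highest at 19.3 and 22.2 TPM, followed by Kcnf1 at 15 and 15.5 TPM, Kcng1 at 15.5 and 14.6 TPM and Kcnv1 at 14.1 and 14.8 TPM. Kcns2 had 9.48 and 10.1 TPM, and the remaining Kcns3, Kcng3, Kcns1 and Kcng4 lay between 1.07 and 5.04 TPM. Kcnv1 was placed at rank 14 among Kv genes by the second quantification, against 17 by the first.

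The EAG branch (Kcnh genes) covers the ether-a-go-go, Erg and Elk channels. Kcnh3, an Elk channel of the forebrain, had 34.0 and 37.0 TPM. Kcnh1 (Eag) had 15.1 and 14.6 TPM, Kcnh7 (Erg) 13.9 and 13.6 TPM, Kcnh2 (Erg, the hERG channel in humans) 8.82 and 8.96 TPM and Kcnh5 (Eag) 5.66 and 5.70 TPM. Kcnh4, Kcnh6 and Kcnh8 were not detected and lay between 0.23 and 0.72 TPM. Kcnh3 was thus the highest gene of the branch in both libraries.

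Among the KCNQ genes, Kcnq3, a subunit of the neuronal M-channel, had 48.9 and 51.2 TPM in replicates 1 and 2 and lies on chromosome 15 from 65986387 to 66286642 (mm10). Kcnq5, which also contributes to the M-current, had 23.6 and 20.1 TPM. Kcnq1, known from heart and epithelia, was not detected, at 0.12 and 0.13 TPM. The values of these 3 genes did not overlap.

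In the Kir subfamily the G-protein-gated genes were prominent, which open when receptors such as GABA-B release G-protein beta-gamma dimers. Kcnj6 had 52.2 and 48.2 TPM, Kcnj3 had 45.7 and 48.5 TPM and Kcnj9 had 27.4 and 26.6 TPM. The ranges of Kcnj6 and Kcnj3 overlapped, and Kcnj9 lay below both. Kcnj5, the cardiac member of the group, was not detected, at 0.10 and 0.13 TPM.

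Strong rectifiers, which pass almost no outward current, differed widely in level. Kcnj4 had 36.1 and 38.9 TPM, against 3.91 and 4.66 TPM for Kcnj2 and 2.13 and 2.49 TPM for Kcnj12, so Kcnj4 was the highest of them in both libraries. Kcnj14 was just below the threshold at 0.65 and 0.81 TPM. Of its 31-base words, 35.6% also occur in the transcripts of Gm5522, so its reads could be divided between both genes.

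Kcnj10, the Kir channel of astrocytes that takes up potassium, had 33.9 and 30.2 TPM, and its partner Kcnj16 had 7.93 and 7.38 TPM, a ratio of 0.239 ± 0.00723. The 5 astrocyte markers summed to 809.7 and 776.9 TPM in replicates 1 and 2, and their part in the Kcnj10 level was not tested. ATP-sensitive channels pair a Kir pore with a sulfonylurea receptor. Kcnj11 had 13.9 and 12.8 TPM and its receptor gene Abcc8 had 21.3 and 18.6 TPM. The vascular pair was lower, with Kcnj8 at 0.95 and 0.68 TPM and Abcc9 at 1.40 and 1.28 TPM, so Kcnj8 was the undetected gene nearest to the threshold. Kcnj13, a channel of the choroid plexus and the retinal pigment epithelium, had 0.15 and 0.22 TPM, Kcnj15 had 0.14 and 0.03 TPM, and Kcnj1, the renal channel, had no count.

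K2P genes had the lowest share, and their highest member, Kcnk1, had 29.9 and 33.2 TPM. Kcnk2, a channel opened by stretch and lipids, had 19.7 and 18.7 TPM, and the acid-sensitive Kcnk9 had 11.9 and 10.4 TPM. These 3 genes did not overlap with each other. Kcnk12, Kcnk10 and Kcnk4 lay between 7.43 and 9.36 TPM, acid-sensitive Kcnk3 had 3.97 and 3.68 TPM, and Kcnk13, a channel known from microglia, had 2.82 and 2.66 TPM. The 4 microglial markers summed to 66.95 and 68.3 TPM, and their part in the Kcnk13 level was not tested. Kcnk4 shares 14.7% of its 31-base words with other genes, mostly Catsperz, whose exons overlap 13.1% of its own on the same strand, so its level is uncertain. Kcnk6 was just below the threshold at 0.88 and 0.68 TPM, Kcnk5 had 0.04 and 0.14 TPM, and Kcnk15, Kcnk7, Kcnk16 and Kcnk18 had at most 1 count.

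In the BK/SK subfamily, which also holds sodium-activated genes and Kcnu1, the highest gene was Kcnma1, the pore of the BK channel, at 59.2 and 54.8 TPM. It lies on chromosome 14 from 23289431 to 24014491 (mm10). Of the SK genes, whose channels carry the afterhyperpolarisation after spikes, Kcnn2 had 46.6 and 40.2 TPM, Kcnn3 10.4 and 8.41 TPM and Kcnn1 7.09 and 7.79 TPM. Kcnn2 therefore exceeded the other SK genes in each library, and Kcnn4, a channel of blood cells and epithelia, was not detected at 0.26 and 0.10 TPM. The sodium-activated Kcnt1 and Kcnt2 had 19.7 and 17.0 TPM and 17.2 and 15.7 TPM. Kcnu1, a channel known from sperm, was listed at 1.78 and 1.93 TPM, from 42 and 48 counts. In the first quantification those counts were assigned only to the transcripts Kcnu1-202 and Kcnu1-203, of 1446 and 697 bases.

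Auxiliary genes held both the highest and some of the lowest levels of the family. Kcnab2, a Kv beta subunit that binds the inner face of Kv1 channels and has an aldo-keto reductase fold, had 319.7 TPM in replicate 1 and 319.5 TPM in replicate 2. It ranked 120 among the 21901 genes with a protein-coding transcript and lies on chromosome 4 from 152390742 to 152477871 (mm10). Kcnab1, whose product can inactivate Kv1 channels fast, had 56.3 and 67.4 TPM, and Kcnab3 had 10.6 and 8.95 TPM. The 3 genes did not overlap. Kv beta was the highest of 18 branches, and Kcnab2 held 81.7% of its summed level. Per length, the summed level of the 3 genes was 2.91 times that of the Kv1 genes in replicate 1 and 3.10 times in replicate 2.

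KChIP genes encode calcium-binding partners that bring Kv4 channels to the surface. Kcnip2 had 90.3 and 88.6 TPM, against 27.1 and 28.2 TPM for Kcnip3, 22.2 TPM in both libraries for Kcnip4 and 8.30 and 8.91 TPM for Kcnip1. Each of these genes was detected, and their ranges did not overlap. The KChIP sum was 2.10 ± 0.0723 times the Kv4 sum. The other Kv4 partners, Dpp6 and Dpp10, had 109.8 and 105.9 TPM and 12.4 and 12.1 TPM, and their sum was 1.71 ± 0.0171 times the Kv4 sum.

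Of the BK beta genes, Kcnmb4, the neuronal one, had 31.9 and 34.1 TPM. Kcnmb2, which inactivates the channel, had 3.36 and 1.75 TPM, Kcnmb3 had 0.41 TPM in replicate 1 and 0 in replicate 2, and Kcnmb1, known from smooth muscle, had 0.17 and 0.10 TPM. Kcnmb4 therefore made up nearly all of the BK beta level, which was 0.631 ± 0.0346 of that of Kcnma1. KCNE genes, whose small membrane proteins bind KCNQ and other pores, were low, and of these Kcne1l alone was detected, at 1.57 and 1.74 TPM. Kcne3, Kcne4, Kcne1 and Kcne2 lay between 0 and 0.49 TPM, and Kcnrg, a regulator that carries the tetramerisation domain of Kv channels, had 0.45 and 0.23 TPM.

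Partners without a Kcn symbol were taken from a list of 16 genes, of which 13 were detected. Amigo1, a membrane partner of Kv2 channels, had 28.4 and 29.5 TPM. Lgi1, a secreted protein linked to Kv1 channels, had 85.3 and 78.9 TPM. Vapa and Vapb, which tie Kv2 clusters to the endoplasmic reticulum, had 55.8 and 58.3 TPM and 46.2 and 46.4 TPM. The calmodulin genes Calm2 and Calm3, whose product is the calcium sensor of SK and KCNQ channels, had 896.7 and 887.3 TPM and 879.6 and 934.4 TPM, above every Kcn gene. Akap5, an anchor for kinases at KCNQ channels, had 25.7 and 22.5 TPM. Of the BK gamma genes, Lrrc55 was detected at 5.58 and 6.34 TPM, while Lrrc38 had 0.58 and 0.39 TPM and Lrrc26 and Lrrc52 had at most 2 counts.

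Of the 28 genes that were not detected, 5 had no count in either library in the first quantification: Kcna7, Kcnj1, Kcnk7, Kcnk16 and Kcnk18. A count of 0 allows up to 3 counts, which for these genes is a level of at most 0.132 TPM, the limit for Kcnk7, and covers counting error only. The second quantification gave Kcna7 0.0999 TPM and Kcnj1 0.0238 TPM in replicate 1, and Kcnk7 0.0875 TPM in replicate 2. In the first, Kcnk15, Kcne2 and Kcnmb3 were at 0 in 1 library, and Kcnmb3 had 15 counts in the other. In all, 20 undetected genes had under 10 counts in at least 1 library and 8 had 10 or more in both. Next to the threshold lay Kcnj8, Kcnk6, Kcnj14 and Kcnh4 below it and Kcng4, at 1.07 and 1.20 TPM, and Kcne1l above it. In the second quantification Kcnj8 had 1.36 and 1.03 TPM, Kcnk6 2.11 and 1.84 TPM and Kcnh4 1.31 and 1.19 TPM. They would thus be called detected by that quantification, in which 69 genes reached 1 TPM in both libraries. Kcnj14 stayed below 1 TPM there in replicate 1, at 0.97 TPM.

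In order of mean level, 28 of 88 neighbouring pairs of genes did not overlap in their library values. Kcnab2, at the top, stood apart from all others. Kcnab1 and Kcnma1 overlapped, Kcnma1 stood apart from Kcnj6, and from Kcna1 down to Kcnd2 no neighbours stood apart. The 10 highest genes were the same 10 in the second quantification.

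The spread between the libraries was small for most Kcn genes. At 50 or more counts in both libraries, the log2 TPM ratio of replicate 2 over replicate 1 had a median of -0.04 over 67 Kcn genes (SD 0.18 over genes), against -0.04 over 13916 genes (SD 0.20). No Kcn gene was at least 2-fold apart, where 0.273% of all genes were. Kcnmb2 was nearest to that limit, with a log2 ratio of -0.94 on 94 counts in replicate 2 and 122 counts in replicate 1. Part of its TPM in replicate 1 lay on Kcnmb2-206, a transcript of 338 bases, at 0.99 TPM from 5.30 counts, against 0.05 TPM in replicate 2. The highest ratio was 0.26, for Kcnab1. Its 534-base noncoding transcript Kcnab1-203 had 8.25 TPM in replicate 1 and 17.13 TPM in replicate 2. The protein-coding Kcnab1-201 had 46.25 and 48.88 TPM. With counts scaled by TMM (edgeR), the log2 ratio of Kcnab1 was 0.15, and the highest was 0.303, for Kcnj2. Across the 94 genes the libraries correlated with a Pearson r of 0.998 and a Spearman rho of 0.994 on log2(TPM + 1), against 0.998 and 0.991 over all genes with a protein-coding transcript. Genes within a library share its depth and are not independent.

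**Figure D3:**
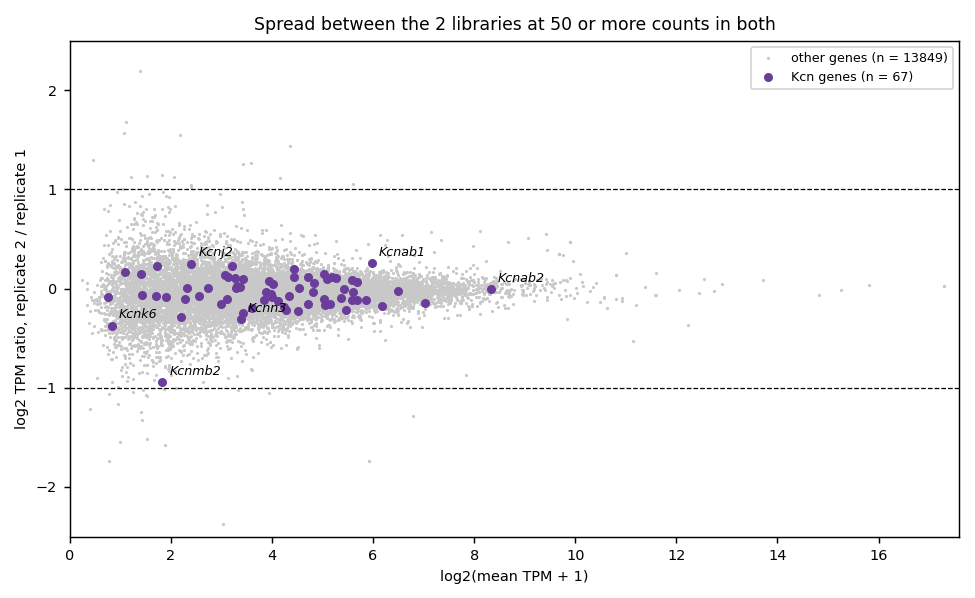
Log2 TPM ratio of replicate 2 over replicate 1 against log2(mean TPM + 1) for 67 Kcn genes (purple) and all other genes (grey) with at least 50 counts in both libraries, with dashed lines at a 2-fold difference. All Kcn genes lie between the lines, with Kcnmb2 lowest at -0.94 and Kcnab1 highest at 0.26.

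The 94 genes have 397 annotated transcripts, with a median of 3 a gene and 38 for Kcnma1, and 18 genes have only 1. Of the 54 detected genes with more than 1 transcript, 48 (88.9%) had the same most abundant transcript in both quantifications, against 75.5% of all detected protein-coding genes with more than 1. For Kcnma1 this was Kcnma1-205, at 63.0% of the gene's TPM. The 6 genes in which it differed were Kcnab2, Kcnab1, Kcnn2, Kcnt1, Kcnk10 and Kcns3.

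For Kcnab2 the first quantification placed 40.8% of the level on Kcnab2-201 and 24.2% on Kcnab2-207, both protein-coding, and the second placed 12.8% and 37.8% on them. For Kcnab1 the second quantification put 49.2% on Kcnab1-203, a processed transcript of 534 bases with no coding sequence, against 20.5% in the first. Kcnab2-211, of 404 bases, held 1.08% of Kcnab2 in the first quantification and 27.6% in the second. The ratio of Kv beta to Kv1 genes was 4.36 in the second quantification and 3.004 in the first, and the part of these transcripts in that difference was not tested. Kcnn2 had 32.0% on Kcnn2-203 in the first and 27.4% on Kcnn2-205 in the second.

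In several other genes the most abundant transcript, the same in both quantifications, held under 60% of the level in the first. It held 57.2% in Kcnj6, 52.7% in Kcnc1, 48.2% in Kcnc2, 37.2% in Kcnq5, 56.5% in Kcnh1 and 54.5% in Kcnh7. In the second quantification it held 56.2% in Kcnj6, 47.7% in Kcnc1, 49.2% in Kcnc2, 37.6% in Kcnq5, 60.1% in Kcnh1 and 63.1% in Kcnh7. The division was between few transcripts in Kcnc1 and Kcnh1, where a second one held 46.7% and 43.5% in the first quantification. Kcnk2-206 held 22.1% of Kcnk2 in the first quantification, from 26.5% in replicate 1 and 17.4% in replicate 2, and 37.6% in the second.

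In Kcnt1 and Kcna6 the transcript with the highest mean level was one not annotated as protein-coding. The retained-intron transcript Kcnt1-206 held 23.8% of Kcnt1, and all transcripts not annotated as protein-coding together held 79.7%. Kcna6-201, annotated as a target of nonsense-mediated decay, held 33.5% of Kcna6 in replicate 1 and 64.3% in replicate 2. The protein-coding Kcna6-204 took 45.5% in replicate 1 and 23.2% in replicate 2. These transcripts are 5827 and 5836 bases long, and in the first quantification the libraries disagreed on which of them was the more abundant. In the second, Kcna6-201 was the higher in both libraries, at 51.4% in replicate 1 and 97.2% in replicate 2, against 39.2% and 0.305% for Kcna6-204. More than 10% of the level lay on transcripts not annotated as protein-coding in 21 of 66 detected genes (31.8%, against 51.7% of all detected protein-coding genes), among them Kcnn3 at 44.3%, Kcnab3 at 35.3% and Kcnq3 at 30.4%.

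**Figure D4:**
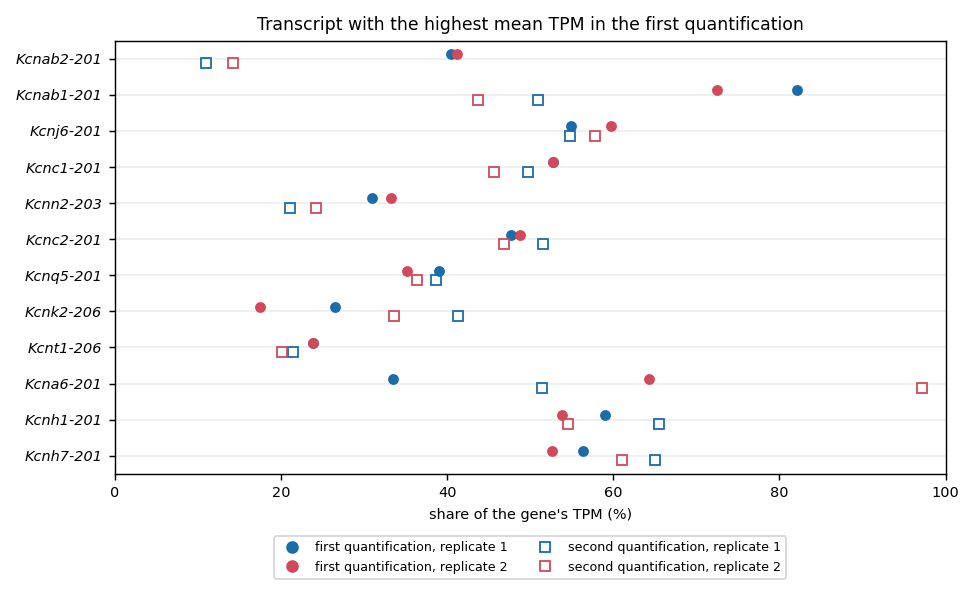
Share of the gene's TPM in percent for the most abundant transcript of 12 genes with a mean of at least 10 TPM in which it held under 60% or differed between quantifications, with filled circles for the first quantification, open squares for the second, blue for replicate 1 and red for replicate 2. Kcna6-201 differs most between the libraries, at 33.5% in replicate 1 and 64.3% in replicate 2, and Kcnab2-201 is near 41% in the first quantification and below 15% in the second.

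On the genome, 18 Kcn genes lie within 200 kb of another, in 8 clusters. On chromosome 3 (mm10), Kcna2 with 34.7 TPM on average lies between Kcna3 with 8.72 TPM and Kcna10 with 0.02 TPM. On chromosome 6, Kcna1 with 47.8 TPM lies between Kcna5 with 0.60 TPM and Kcna6 with 17.8 TPM. Kcnj9 and Kcnj10 on chromosome 1, a neuronal and an astrocytic gene, had 27.0 and 32.0 TPM. Kcne2 and Kcne1 on chromosome 16, Kcnk5 and Kcnk16 on chromosome 14 and Kcnj5 and Kcnj1 on chromosome 9 were pairs in which neither gene was detected. Of all 94 genes, 39 share no 31-base word with another gene, 14 share over 1% and 2 over 5%, which were Kcnj14 and Kcnk4. Exons of 26 genes overlap an exon of another gene on the opposite strand, by 39.6% of exonic bases in Kcna6, 31.5% in Kcnmb4 and 31.1% in Kcnj3. Whether the quantification used the strand of the reads is not given in the sources used here, so reads of these partners may be included. The counts of clusters, shared words and overlaps were not made over all genes. Whether they are particular to Kcn genes is therefore not known.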

How the data were processed

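Each library had a gene quantification and a transcript quantification derived, per the file listings deposited with the data, from a transcriptome alignment on mm10 with GENCODE M21, and a second transcript quantification made directly from the reads. The columns follow the layout of RSEM and, for the second, kallisto, per the file headers. The sources used here name no program or version. The deposited expected count is an estimated number of reads and need not be whole. The deposited TPM and FPKM are corrected for length, and TPM is scaled over every entry, spike-ins included. The isoform percent deposited by the authors was replaced by shares computed here from TPM in both quantifications. The mm10 reference is C57BL/6J, so reads with CAST/EiJ variants may be lost.

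Genes with at least 1 TPM in both libraries were called detected. Ratios were taken at 50 or more expected counts in both. The second quantification was summed per gene. Shared words and filter codons were read from the GENCODE M21 transcripts. With 1 group, nothing was tested between groups, and the deposited bounds on TPM were not used. For the alternatives, expected counts were rounded to whole numbers and scaled with edgeR 4.0.16 (TMM) or DESeq2 1.42.0 size factors under R 4.3.3, which were tested on simulated data. The counting error of a level follows from its counts, and where none was seen the limit is 3 counts. It leaves out the division of reads among transcripts and differences between animals. All members were accounted for. In each subfamily the 3 highest genes, undetected genes, genes that moved by 3 or more ranks in the second quantification, the transcripts of genes above 10 TPM with a top share under 60% or a differing top transcript, and the partner genes were named by rule, and other members after their values were seen. Some genes that the rule names are left out of the text and figures. The members and lists were chosen with earlier results of these data known.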

Additional observations from a re-analysis of the deposited data

How the results depend on the processing

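Of 62 alternative values, 43 lay within a set limit of the main value and 19 did not. The limit was 1 SD, or 1.5 times the main value for counts of genes. For correlations it was taken from the sampling error of r, and for the median ratio the SD was over genes. With 2 libraries, a subfamily share in a single library always lies within 1 SD of the mean, and shares of FPKM equal those of TPM. These values could not move, so the 43 is not a measure of stability. The number of detected genes was 66 and ranged from 53 at 5 TPM to 74 at 10 counts, and was 66 in either library alone. It was 69 in the second quantification and 72 with TPM rescaled over nuclear protein-coding genes. The median level was 12.7 TPM in the second quantification and 20.2 TPM with TPM rescaled over nuclear protein-coding genes, and 8.12 to 8.58 TPM in single libraries. Nuclear protein-coding genes held 42.0% of TPM in replicate 1 and 41.2% in replicate 2, so the rescaling raises every level. The small RNA genes Rn7s1, Rn7s2 and Rn7sk together held 37.5% and 38.1% of TPM. In shares of expected counts, which are not per length, Kv held 38.0%, auxiliary 19.2%, KCNQ 18.3%, BK/SK 10.1%, Kir 9.99% and K2P 4.34%. Without its own highest gene, a subfamily held 16.9% (auxiliary), 9.66% (Kir), 5.43% (BK/SK) or 3.48% (K2P), and for Kv and KCNQ this is not reported here. The second quantification gave 36.1% auxiliary, 29.0% Kv, 11.2% Kir and 4.70% K2P. With no count filter beyond a level above 0 in both libraries, 5 genes were 2-fold apart (Kcne3, Kcnn4, Kcnk5, Kcnj15 and Kcnv2), all with at most 12 counts in each library. Kcnmb3, Kcnk15 and Kcne2, at 0 in 1 library, have no ratio. The Pearson r was 0.994 with a pseudocount of 0.1 TPM and 0.995 over genes detected in at least 1 library. TMM factors put the median log2 ratio of Kcn genes at 0.01, against 0.003 over all genes. The rescaled median, the shares of expected counts and the shares without a gene change by construction. The cause of the other shifts was not tested. No paired analysis was possible because the libraries form 1 group. With 2 libraries, low genes are limited by their counts.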

Other observations

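Genes with a Kcn symbol but no protein-coding transcript were outside the 94. Of these 5, Kcnmb4os2 had 5.75 and 5.79 TPM, Kcnd3os 2.27 and 2.90 TPM and Kcnq1ot1, an imprinted noncoding RNA within Kcnq1, 2.17 and 1.87 TPM in replicates 1 and 2. Kcnab3os had 0.29 and 0.19 TPM, and Kcnmb4os1 was listed at 0.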
